A study of Mus musculus with 17 samples.

Results

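Sera were divided by an index measured in each of them, the Ct of miR-23a-3p minus the Ct of miR-451a. Sera with an index of 5 or more were set against sera with an index below 5. Of the 17 sera in the study, 6 had an index of 5 or more and 11 had an index below 5. The Ct is the PCR cycle at which product crosses a threshold, so a lower Ct means more template. The 2 sets were defined from measured values and are not groups of the study's design. They are called sera of high index and sera of low index here.

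The study measured microRNAs (miRNAs) in mouse serum by real-time PCR on a ready-made panel of 357 miRNA assays and 8 control assays. It compared 3 healthy wild-type FVB/N mice, 7 transgenic AT-ATX mice without tumors and 7 transgenic AT-ATX mice with spontaneous tumors, each labelled as 1 mouse. AT-ATX mice carry a transgene for Autotaxin, the secreted enzyme that makes lysophosphatidic acid. No promoter of the transgene, age or tumor type is named in the sources used here. Tumor replicate 5 has a question mark in its animal name and was kept in its labelled group. Each group contributed to both sets: 2 of 3 wild-type sera, 2 of 7 tumor-free sera and 2 of 7 tumor sera had a high index. Replicate numbers only name the mice, and the p-values below measure the spread between these sera.

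A miRNA is a short RNA, loaded into an Argonaute protein, that recognises target mRNAs mainly through its seed, the bases 2 to 8 from its 5′ end. miR-451a is very abundant in red blood cells. It is transcribed with miR-144 from a locus switched on in erythroid cells and is matured by Argonaute 2 without Dicer. Serum miRNA comes from blood cells, platelets, endothelium and tissues. When red cells break during or after blood collection, their miRNAs enter the serum. miR-23a-3p is used as the partner of miR-451a in this index because it is little affected by red cell lysis.

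The sequences that the results turn on are printed here, from RefSeq (GRCm38.p6), 5′ to 3′, with the seed in capitals. The first pair holds the assays of the index, which have unrelated seeds.
miR-451a: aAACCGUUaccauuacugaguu
miR-23a-3p: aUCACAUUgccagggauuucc
The next sequences carry shared seeds whose members all differed in one direction where they passed the test. miR-106b-5p and miR-17-5p were higher in the sera of high index, and the others were lower.
miR-106b-5p: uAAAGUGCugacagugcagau
miR-17-5p: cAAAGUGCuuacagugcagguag
miR-99a-5p: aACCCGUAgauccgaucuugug
miR-99b-5p: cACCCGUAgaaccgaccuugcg
miR-125a-5p: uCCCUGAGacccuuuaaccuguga
miR-125b-5p: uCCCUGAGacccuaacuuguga
The last sequences are shown because the seed is the same and the direction was not. miR-16-5p, miR-15a-5p, miR-449a-5p, miR-449c-5p, miR-301a-3p and miR-148b-3p were higher in the sera of high index relative to the panel. miR-195a-5p, miR-34a-5p, miR-34b-5p, miR-130a-3p, miR-148a-3p and miR-152-3p were lower.
miR-16-5p: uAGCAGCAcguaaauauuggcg
miR-15a-5p: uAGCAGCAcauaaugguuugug
miR-195a-5p: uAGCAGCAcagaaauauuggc
miR-449a-5p: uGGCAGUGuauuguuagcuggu
miR-449c-5p: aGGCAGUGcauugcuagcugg
miR-34a-5p: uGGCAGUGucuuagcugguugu
miR-34b-5p: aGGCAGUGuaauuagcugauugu
miR-301a-3p: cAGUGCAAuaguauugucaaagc
miR-130a-3p: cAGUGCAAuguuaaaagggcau
miR-148b-3p: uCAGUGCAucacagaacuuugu
miR-148a-3p: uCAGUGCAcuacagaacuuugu
miR-152-3p: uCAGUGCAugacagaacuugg

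The index ranged from 5.28 to 7.82 cycles in the sera of high index (median 5.68) and from 2.21 to 4.89 in the sera of low index (median 3.71). These values chose the members and are given as a description, with no test. Wild-type 2 stood highest at 7.82, followed by tumor 4 at 7.09 and tumor 3 at 5.83. Tumor-free 5 had 5.54, tumor-free 2 had 5.50 and wild-type 3 had 5.28, the value just inside the threshold. Just outside it lay tumor 5 at 4.89, and the lowest index was that of tumor 1 at 2.21.

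Both assays of the index contributed to it. The raw Ct of miR-451a was 16.5, 18.6 and 19.4 (lowest, median and highest) in the sera of high index and 17.4, 19.5 and 22.2 in the sera of low index, so the sets overlapped widely. The raw Ct of miR-23a-3p was 24.0, 24.7 and 25.2 against 21.1, 23.2 and 24.5. The medians thus show miR-451a earlier and miR-23a-3p later in the sera of high index. The plot of the index by serum shows both parts.

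**Figure D1:**
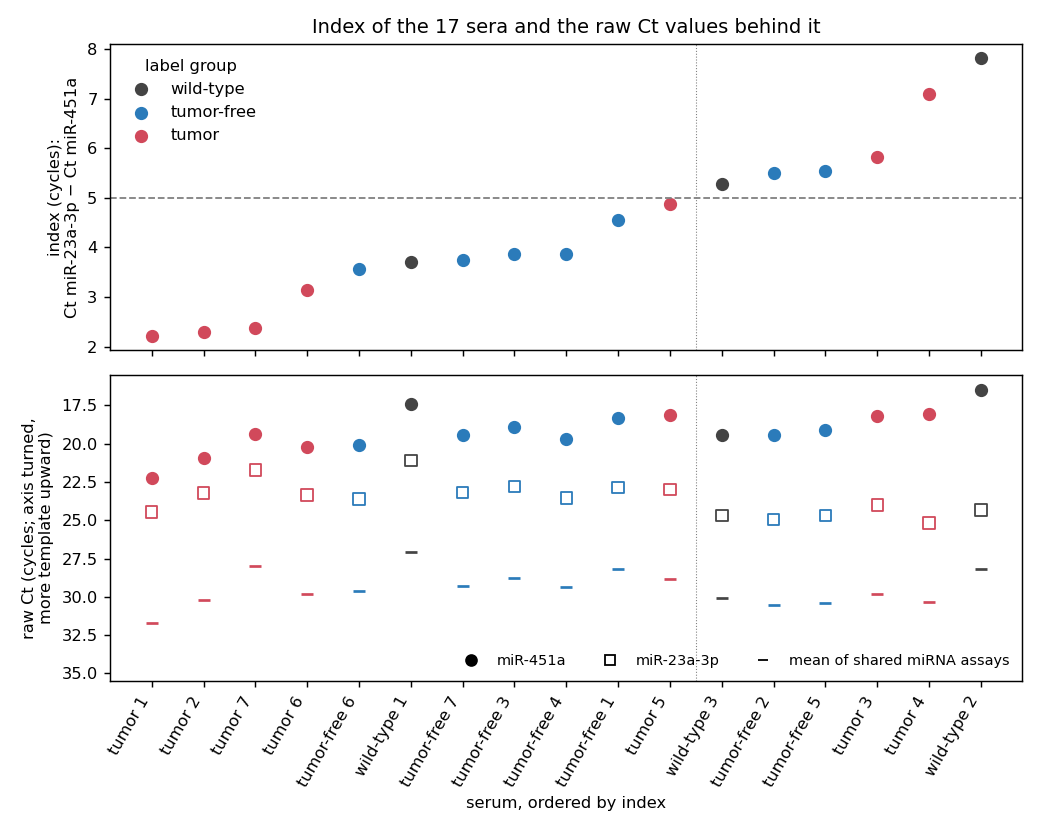
Index (upper panel, in cycles) and raw Ct (lower panel, axis turned so that more template lies upward) of 17 sera ordered by index, with colours for the label groups. Filled circles are miR-451a, open squares miR-23a-3p and dashes the mean of the 250 miRNA assays detected in all sera. The 6 sera right of the dotted line have an index from 5.28 to 7.82, and their miR-451a Ct of 16.5 to 19.4 overlaps the 17.4 to 22.2 of the others.

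Across the panel, the sera of high index reached their threshold later. The mean Ct of the 250 assays was 28.2, 30.2 and 30.6 (lowest, median and highest) in the sera of high index and 27.1, 29.3 and 31.7 in those of low index. With label group as covariate the difference was 1.12 cycles (exact permutation p = 0.0627, adjusted p = 0.173 over 10 measures of the sera). Between 327 and 347 miRNA assays were detected in the sera of high index and between 312 and 356 in the others, a difference of -15.2 assays (exact permutation p = 0.0128, adjusted p = 0.106). The small nuclear RNA RNU5G had a Ct of 31.1 to 33.4 against 26.7 to 34.5, a difference of 2.19 cycles (exact permutation p = 0.0212, adjusted p = 0.106). RNU1A1 differed by 2.02 cycles and U6 snRNA by 2.76, with adjusted exact permutation p of 0.173 and 0.294. Without wild-type replicate 1 the difference in U6 snRNA was 0.707 cycles. None of the 10 measures passed after adjustment. The added spike-in RNAs UniSp2, UniSp4 and UniSp5 differed by 0.131, 0.163 and -0.0526 cycles, with adjusted exact permutation p from 0.539 to 0.894. The spike-ins UniSp6 and cel-miR-39-3p came 0.113 and 0.603 cycles later, both with an adjusted exact permutation p of 0.173. Only 1323 arrangements of the sets exist within the label groups, and the smallest p they can give is 0.000756. The part of total miRNA input in the results below was not tested, and results are therefore given on 2 scales.

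The first scale is the level, the mean Ct of the 250 shared assays minus the assay's own Ct, in log2 units, so that a difference of 1 is about a doubling relative to the panel. A level says how abundant a miRNA was relative to the panel and not how much of it the serum held. The 2 assays of the index were left out of the mean and of the test. Differences below are high-index minus low-index sera from limma with label group as covariate, with Benjamini-Hochberg adjustment over all 336 assays tested. On this scale 109 of 336 assays passed an adjusted p of 0.05. Of these, 49 were higher in the sera of high index (14.6% of those tested) and 60 were lower (17.9%). The median difference over all 336 assays was -0.09.

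The second scale is the raw Ct with its sign turned, which keeps differences in total input. There 0 assays were higher in the sera of high index by limma and 119 were lower (35.4%), and 151 of 336 had an unadjusted p under 0.05. The median of all assays was -1.23. Scaled to the 3 spike-in assays, limma again called 0 assays higher, with 91 lower and 131 at an unadjusted p under 0.05. For an assay detected in all sera, the raw difference is the difference relative to the panel minus 1.12, the difference in mean Ct between the sets. That difference in mean Ct did not pass by itself. All 60 assays that were lower relative to the panel were also lower on raw Ct. Those detected in all sera had to lie below 0 there, so this is no separate support. Of the 49 that were higher relative to the panel, 40 lay above 0 on raw Ct and 9 did not, and none passed there. Red cell miRNAs were thus not higher by a test on the raw scale, where 6 of 10 lay above 0, and "higher" below means higher relative to the panel. Because serum pools many sources, more cells releasing a miRNA and more miRNA per cell cannot be told apart.

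**Figure D2:**
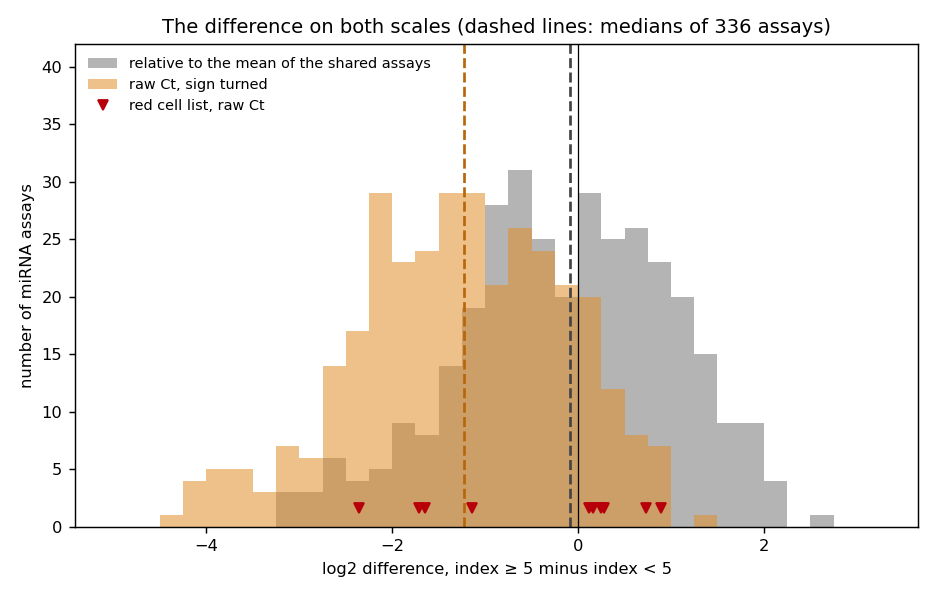
Number of miRNA assays (y) by log2 difference between sera of index 5 or more and sera of index below 5 (x), relative to the mean of the shared assays (grey) and on raw Ct with its sign turned (orange), for 336 assays. Dashed lines mark the medians of -0.09 and -1.23, and triangles mark the 10 tested red cell miRNAs on raw Ct, of which 6 lie above 0.

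**Figure D3:**
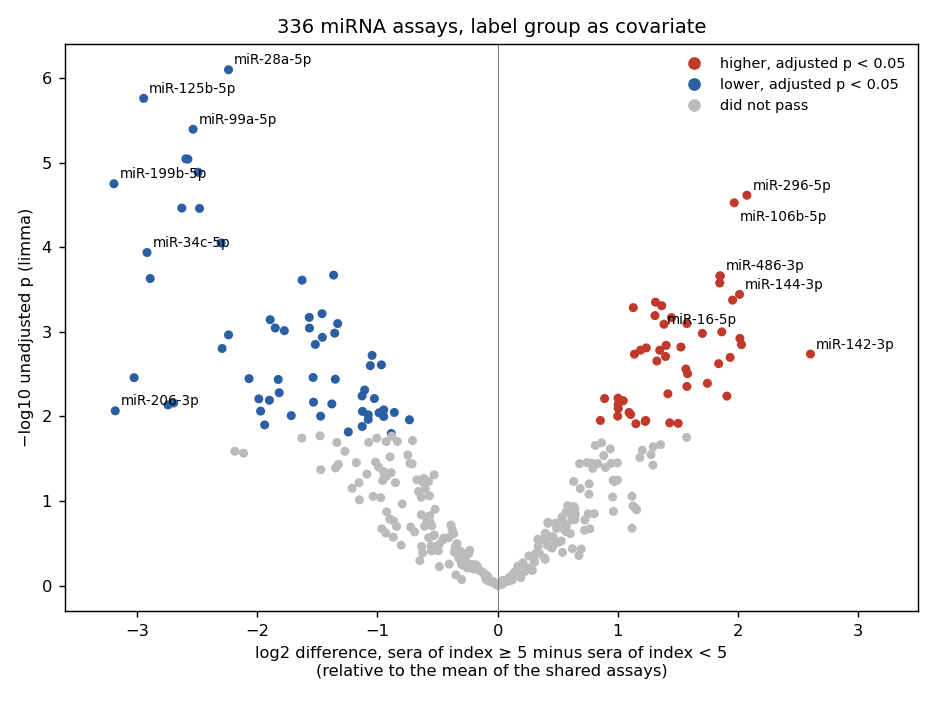
Log2 difference relative to the panel (x) against -log10 of the unadjusted limma p (y) for 336 miRNA assays, with label group as covariate. Red points are the 49 assays higher and blue points the 60 assays lower in the sera of high index. On raw Ct none of the red points passed and all blue points did. For assays detected in all sera, raw Ct shifts these differences downward by a constant, so it gives no separate support.

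Of 10 tested red cell miRNAs, 5 were higher in the sera of high index and 0 lower, beside 14.6% and 17.9% of all assays. The list had a median of 1.25 beside -0.09 for all assays. On raw Ct the median of the list was 0.14 beside -1.23, and none of its members passed as higher. After quantile normalization it was 0.22 beside -0.11. There miR-486-3p (1.65) and miR-144-3p (1.65) still passed by limma, while miR-92a-3p (0.82) and miR-25-3p (0.41) did not. miR-16-5p had a difference of 0 there. Quantile normalization gives assays of the same rank the same value in every serum. A very abundant assay that keeps its rank can thus show no difference, and the 0 does not test miR-16-5p (mean Ct 19.8). miR-144-3p, the erythroid partner of miR-451a on chromosome 11 (chr11:78073005-78073241 for both hairpins, GRCm38.p6), had levels of 6.62, 8.10 and 9.60 against 4.58, 6.20 and 7.15 (lowest, median and highest). The sets overlapped by the lowest sera of high index, and the difference was 2.01 ± 0.46 (SE; limma adjusted p = 0.00607). Since miR-144 and miR-451a come from a single transcript, this assay is not independent of the index. miR-486-3p, from an erythroid and muscle locus inside the ankyrin gene Ank1, had levels of 0.95, 1.43 and 2.42 against -1.66, -0.63 and 0.95. Its difference was 1.85 ± 0.41 (SE; limma adjusted p = 0.00457). miR-3107-5p, from the Mir486b locus and named after its values were seen, was higher by 1.57 (limma adjusted p = 0.0157).

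miR-16-5p, abundant in red cells and a repressor of cyclins, had levels of 10.13, 10.51 and 11.18 against 8.48, 8.90 and 10.66. It was higher by 1.37 ± 0.32 (SE; limma adjusted p = 0.00717), and 1 serum of low index, tumor 5, reached the range of the others. miR-92a-3p (1.40) and miR-25-3p (1.23) also passed. miR-15b-5p had a difference of 1.28 with a limma adjusted p of 0.0736. The other 4 members, miR-183-5p (-0.53), miR-363-3p (-0.57), miR-96-5p (-0.30) and miR-182-5p (0.10), had limma adjusted p from 0.368 to 0.913. The last of these lay below 0 on raw Ct (-1.14), with spike-ins (-1.10) and without tumor replicate 4 (-0.21). miR-96-5p was detected in 2 of 6 sera of high index and in 11 of 11 of low index. Both of these 2 sera were wild-type. Its difference therefore rests on wild-type mice alone, with 1 serum of low index.

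**Figure D4:**
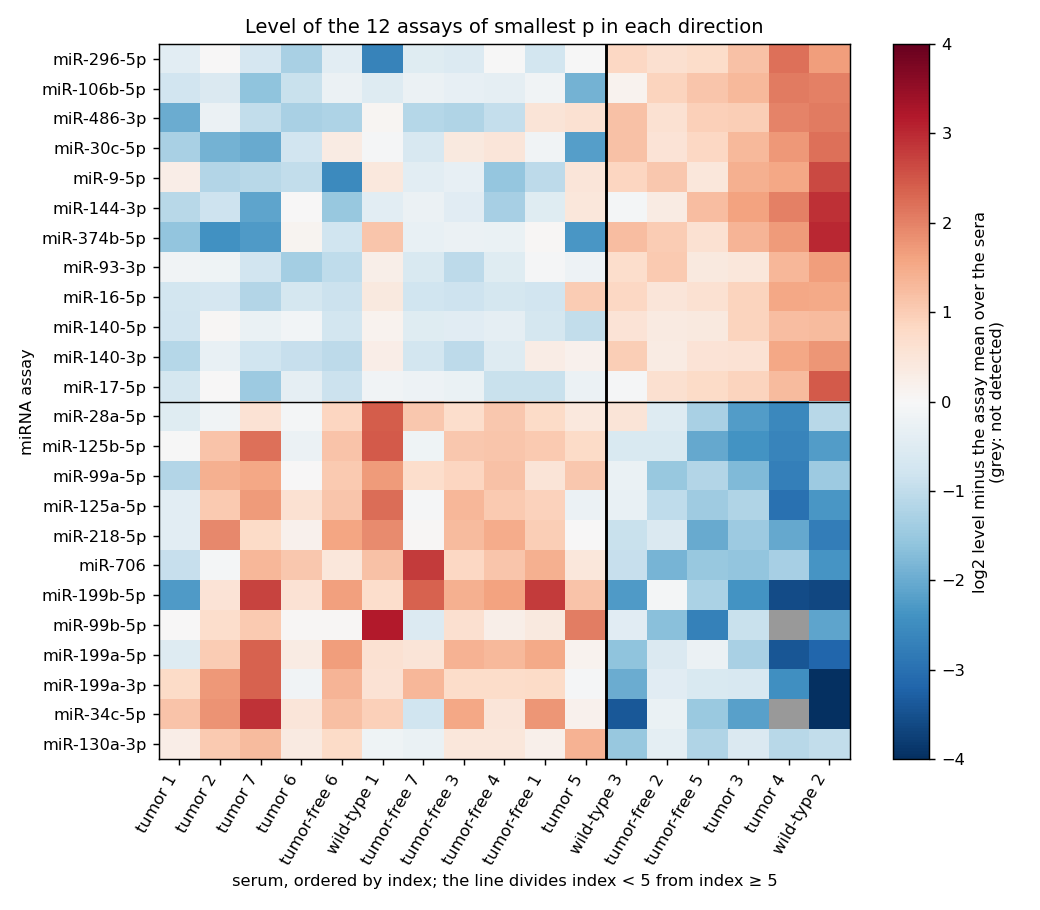
Level of 24 miRNA assays (rows), the 12 of smallest p in each direction, in 17 sera (columns) ordered by index, as the log2 level minus the assay's mean over the sera; grey cells were not detected. The vertical line divides 11 sera of low index from 6 of high index, and miR-106b-5p lies higher in every serum right of it while miR-125b-5p lies lower, relative to the panel.

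All sera of one set lay beyond all sera of the other for 14 of 336 assays (4.17%), 8 higher and 6 lower in the sera of high index. miR-296-5p, from the imprinted Gnas region, had levels of -0.60, -0.26 and 0.95 against -3.94, -1.75 and -1.25. The difference was 2.07 ± 0.37 (SE; 4.21-fold relative to the panel, limma adjusted p = 0.00102). Within the label groups it was 1.12 in tumor-free mice, 2.16 in tumor mice and 3.92 in wild-type mice, the last from 2 sera against 1. On raw Ct it was 0.95, with an adjusted p of 0.250. The others in this direction were miR-106b-5p, miR-30c-5p, miR-93-3p, miR-140-5p, miR-140-3p, let-7d-5p and miR-301a-3p. Both arms of miR-140, a miRNA encoded in an intron of Wwp2 and best known from cartilage, were thus separate between the sets relative to the panel. Their differences were 1.13 (5p) and 1.31 (3p). On raw Ct they were 0.009 and 0.19, with limma adjusted p of 0.997 and 0.857.

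The mir-17 clusters were the list with the most members higher, 12 of 16, with 0 lower, beside 14.6% and 17.9% of all assays. They encode miRNAs that restrain the cell cycle inhibitor p21 and the pro-apoptotic Bim and are induced by Myc. The median of the list was 1.23 beside -0.09 for all assays, and 0.12 beside -1.23 on raw Ct. In the cluster that begins with Mir17 (chr14:115043671-115044506, GRCm38.p6) 8 of 10 tested assays were higher, among them miR-17-5p (1.45), miR-20a-3p (1.93) and miR-19a-3p (1.24). In the cluster of Mir106b, Mir93 and Mir25 (chr5:138165321-138165818), inside the replication gene Mcm7, 4 of 5 were higher. miR-106b-5p had levels of 4.88, 5.94 and 6.81 against 2.85, 4.22 and 4.59. The sets did not overlap, and the difference was 1.97 ± 0.36 (SE; limma adjusted p = 0.00106) and 0.85 on raw Ct. In the paralogous cluster on the X chromosome, miR-106a-5p (0.77) and miR-363-3p (-0.57) did not pass. miR-92a-3p can come from either of its clusters. miR-92a-3p, miR-25-3p and miR-363-3p are also on the red cell list, so these lists are not independent. Both arms of miR-17, miR-18a, miR-20a and miR-93 were counted as separate assays.

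In the mir-15/16 family 5 of 9 tested assays were higher and 2 were lower (median 1.28), beside 14.6% and 17.9% of all assays. miR-15a-5p (1.70), miR-15a-3p (1.40), miR-16-1-3p (1.57) and miR-15b-3p (1.09) passed beside miR-16-5p. miR-195a-5p had levels of -1.38, -0.65 and -0.30 against -0.73, 0.38 and 1.45. It was lower by the fit, -1.33 ± 0.33 (SE; limma adjusted p = 0.00854). miR-497-5p, which is encoded beside miR-195a, was lower as well (-1.11, limma adjusted p = 0.0241). As printed above, miR-16-5p and miR-195a-5p carry the same seed, AGCAGCA, and their sequences differ after it.

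Other seeds were divided in the same way. Of 336 tested assays, 249 were matched to a RefSeq sequence, and 28 seeds were shared by at least 2 of these. In 11 seeds at least 2 assays passed, all in one direction in 6 seeds and in both directions in 5. With the seed GGCAGUG, miR-449a-5p (1.57) and miR-449c-5p (2.01), miRNAs of multiciliated cells encoded side by side, were higher. miR-34a-5p (-0.95) and miR-34b-5p (-2.07), targets of p53, were lower, as was miR-34c-5p (-2.92), for which no sequence was matched. miR-449a-5p had levels of -1.74, -0.86 and 0.49 against -3.28, -2.14 and 1.12, and miR-34b-5p of -7.23, -5.87 and -4.80 in 5 sera against -5.38, -3.18 and -1.18. The sets overlapped for both, and miR-34b-5p had late Ct values of 34.8 to 36.6 in the sera of high index. Those of miR-34c-5p were late there as well, 34.1 to 36.7 in 5 sera.

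With the seed AGUGCAA, miR-301a-3p was higher in every serum of high index than in any of low index (1.68 to 3.42 against -2.58 to 1.67). miR-130a-3p was lower in every one (-0.16 to 0.97 against 1.11 to 2.76). Their differences were 1.74 and -1.36. miR-301b-3p was higher as well, and miR-130b-3p (0.65) did not pass. With the seed CAGUGCA, miR-148b-3p was higher (0.85), and below 0 on raw Ct (-0.26), with spike-ins (-0.18) and with reference miRNAs (-0.02). miR-148a-3p (-1.08) and miR-152-3p (-1.57) were lower. With the seed ACAUUCA, miR-181c-5p was higher (1.05, and -0.07 on raw Ct) and miR-181b-5p was lower (-1.13). Whether assays of a shared seed detect each other's targets was not tested.

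**Figure D5:**
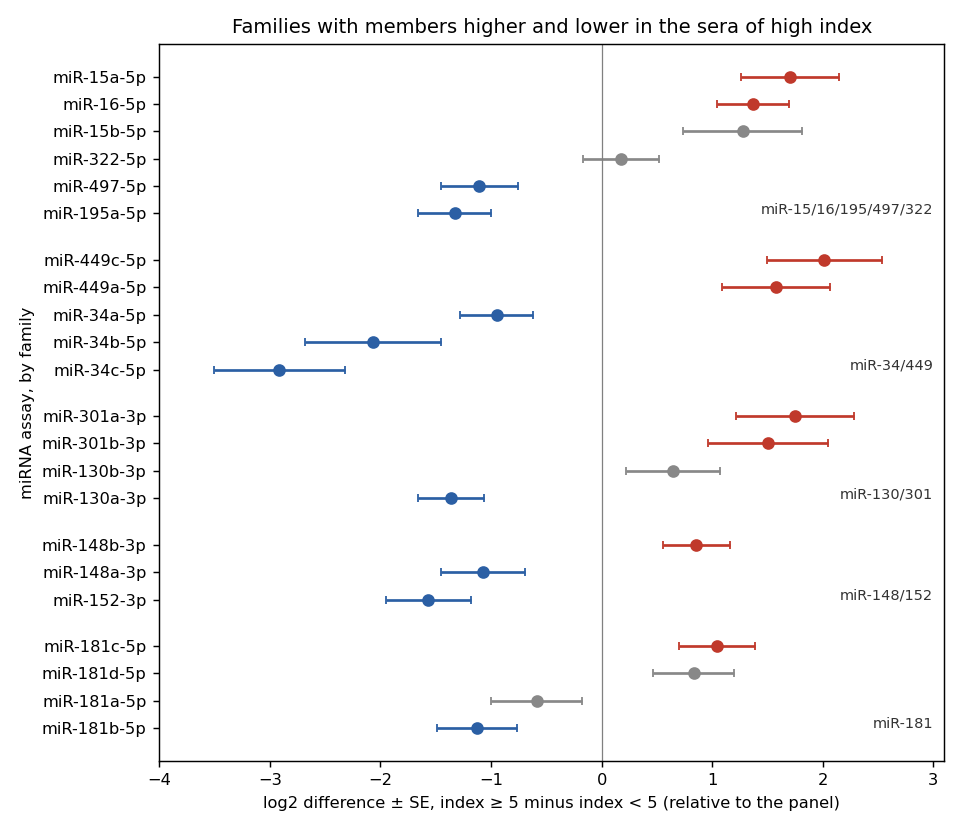
Log2 difference with its SE (x, relative to the panel, from limma) for 22 assays of 5 families (y). Red assays were higher, blue assays lower and grey assays did not pass, so that each family has members on both sides; on raw Ct no red assay passed, and miR-148b-3p and miR-181c-5p lay below 0.

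Of the let-7 family, which restrains proliferation and is kept low in stem cells by Lin28, 4 of 9 assays were higher and 0 lower. Of all assays 14.6% were higher and 17.9% lower. The median of the family was 1.23, and 0.11 on raw Ct. let-7d-5p had levels of 2.15, 2.70 and 4.90 against -0.71, 1.39 and 2.04, with no overlap and a difference of 1.86 ± 0.48 (SE; limma adjusted p = 0.00923). let-7f-5p (2.03), let-7g-5p (1.52) and let-7a-5p (1.23) also passed. let-7e-5p had a difference of -1.01 and let-7c-5p of 0.74, both with a limma adjusted p of 0.0852, and let-7c-5p lay at -0.38 on raw Ct. Beside 14.6% of all assays higher and 17.9% lower, only miR-30c-5p passed of 9 tested in the mir-30 family. Its levels were 4.96, 5.65 and 6.60 against 2.21, 3.78 and 4.88, and its difference was 1.85 ± 0.41 (SE; limma adjusted p = 0.00457). miR-30b-5p had 0.95 (limma adjusted p = 0.0852), and -0.17 on raw Ct. miR-103-3p, from introns of the pantothenate kinase genes, was higher by 1.58 (limma adjusted p = 0.0175), and its paralog miR-107-3p had 1.20 (limma adjusted p = 0.0674).

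Among the assays that were lower, miR-28a-5p, encoded in an intron of Lpp, had the smallest p. Its levels were -4.91, -3.55 and -1.84 in the sera of high index against -2.84, -1.66 and 0.06. It was lower by 2.24 on the log2 scale (SE 0.31; limma adjusted p = 0.000268), and the difference was -1.80 in tumor-free, -2.46 in tumor and -2.70 in wild-type mice. miR-125b-5p, broadly expressed in mesenchymal and haematopoietic stem cells, had levels of 1.65, 2.15 and 3.67 against 4.05, 5.36 and 6.73. The sets did not overlap, and the difference was -2.94 ± 0.43 (SE; 7.69-fold, limma adjusted p = 0.000291). On raw Ct it was -4.06. miR-218-5p, from introns of the axon guidance genes Slit2 and Slit3, showed no overlap either (-4.71 to -2.52 against -2.36 to -0.04; difference -2.58). miR-706 did likewise, with a difference of -2.49.

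Assays of the miR-99/100 seed ACCCGUA were lower in 3 of 3 cases: miR-99a-5p (-2.53), miR-99b-5p (-2.63) and miR-100-5p (-2.24). miR-99a-5p had levels of -1.26, 0.00 and 1.23 against 0.33, 2.54 and 3.19. Its hairpin lies beside that of let-7c-1 (chr16:77598936-77599750, GRCm38.p6), and let-7c-5p, which other loci also encode, had 0.74. miR-125a-5p, at -2.59 ± 0.43 (SE; limma adjusted p = 0.000610), lies beside let-7e (chr17:17830352-17830879), which had -1.01. Of 33 groups of hairpins at most 10000 bp apart, 10 had at least 2 assays that passed, and in 9 of these all passed in one direction. The exception was the cluster of let-7a-1, let-7f-1 and let-7d (chr13:48536012-48538272), where 3 5p arms were higher and let-7a-1-3p was lower (-0.73). The groups are not independent. miR-29b-3p counts both in the group of Mir29b-2 and Mir29c and in that of Mir29a and Mir29b-1. Both arms of a hairpin, as of miR-199a, count as separate assays. Of 62 hairpins with both arms tested, both arms passed in 10, and in all 10 they passed in the same direction.

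In the endothelium and smooth muscle list 4 of 11 were lower and 0 higher, beside 17.9% and 14.6% of all assays. The median was -0.80. The 4 were miR-199b-5p (-3.19), miR-199a-5p (-2.48), miR-199a-3p (-2.30) and miR-214-5p (-1.99). Mir199a-2 and Mir214 lie in the Dnm3os transcript (chr1:162217814-162223477, GRCm38.p6), but both arms of miR-199a can also come from another hairpin. The other arm of Mir214, miR-214-3p, did not pass in its mouse assay (-0.80) or its rat assay (-1.09). miR-199a-3p had levels of -3.21, -0.51 and 0.35 against 0.66, 1.57 and 3.15, with no overlap. The endothelial miR-126a-3p (0.08) and the smooth muscle miR-145a-5p (0.06) did not pass.

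Of 7 muscle assays 4 were lower and 1 was higher, beside 17.9% and 14.6% of all assays, with a median of -2.69. miR-1a-3p, which drives muscle differentiation, had levels of -2.65, -0.59 and 0.54 against -0.75, 2.64 and 5.98 and a difference of -3.02 ± 0.91 (SE; limma adjusted p = 0.0189). miR-206-3p (-3.18), miR-133a-3p (-2.74) and miR-133b-3p (-2.69) were lower as well. The assay that was higher was the rat assay of the heart miRNA miR-208a-3p (1.91, limma adjusted p = 0.0269). Its Ct values were late, 32.8 to 34.9 in the sera of high index and 34.0 to 36.5 in those of low index. The mouse assay of the same name had -0.65 (limma adjusted p = 0.620) and was missing in 3 of 6 sera of high index. It was the only one of 19 such pairs with opposite signs.

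In the liver list 4 of 11 were lower and 0 higher, beside 17.9% and 14.6% of all assays, with a median of -0.92. miR-122-5p, by far the most abundant hepatocyte miRNA, had levels of 4.50, 7.22 and 8.02 against 4.72, 8.32 and 9.28. Its ranges overlapped almost fully, and its difference of -1.24 ± 0.47 (SE) passed narrowly (limma adjusted p = 0.0475). miR-365-3p (-1.46), miR-193a-3p (-1.13) and miR-148a-3p (-1.08) were lower, and the liver miRNAs miR-192-5p (-0.09) and miR-194-5p (-0.92) did not pass. Of the mir-29 family, repressors of collagen mRNAs, 3 of 6 were lower, beside 17.9% of all assays, and all 6 lay below 0. The 3 were miR-29b-3p (-1.04), miR-29a-3p (-0.97) and miR-29c-3p (-0.95). Of the list for the imprinted Dlk1-Dio3 region all 14 assays lay below 0, beside 175 of all 336. Of the list 3 were lower, near the 17.9% of all assays: miR-136-5p measured by a rat assay (-1.82), miR-154-5p (-1.72) and miR-127-3p (-1.94). All 3 differed most in wild-type mice, where only 1 serum had a low index (-3.88, -4.91 and -5.70 in this order). In tumor-free mice the differences were -0.97, -0.27 and -1.31, and in tumor mice -1.72, -1.07 and -0.75. From the same region but not on the list, miR-134-5p was lower (-1.90) and miR-758-3p had 0.72 and did not pass.

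Of the white blood cell list 1 of 10 was higher and 1 lower (median -0.57), no more than the 14.6% and 17.9% of all assays. miR-142-3p, which is specific to blood cells, had levels of 5.29, 5.96 and 8.74 against -0.36, 3.79 and 5.70. Its difference of 2.60 ± 0.72 (SE; limma adjusted p = 0.0121) was the largest of the 49 higher assays, and its range in the sera of low index spanned 6 units. The other arm of its hairpin, miR-142-5p, had 0.64 (limma adjusted p = 0.276). miR-181b-5p was lower (-1.13), while miR-150-5p (-0.90), miR-155-5p (-0.69) and miR-223-3p (-0.56) did not pass. In the platelet list 2 of 12 were lower, near the 17.9% of all assays, and 0 higher (median -0.55). The 2 were miR-28a-5p and miR-199a-3p, described above. The platelet-rich miR-223-3p, miR-126a-3p and miR-191-5p (0.42) did not pass.

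Epithelial and neuronal assays had medians of 0.12 and 0.11. Each list had 1 assay that passed, beside 14.6% of all assays higher and 17.9% lower. miR-200a-3p, which keeps epithelial cells from mesenchymal change, was the only one of 10 epithelial assays that passed, at -1.35 (limma adjusted p = 0.0189). miR-9-5p, best known from neural progenitors, was the only one of 6 neuronal assays that passed, at 1.85 ± 0.41 (SE; limma adjusted p = 0.00468). Its levels were low, -3.86, -3.05 and -1.67 against -6.86, -5.29 and -3.81.

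Beyond direction, the assays shared some properties. The median Ct over all sera was 28.4 for the 49 higher assays, 31.0 for the 60 lower assays and 31.6 for the 227 others, a comparison between assays that also holds their PCR efficiency. The median GC content of the mature sequences was 45.5% in both called sets and 47.8% in the others. Of the higher assays 38 of 49, and of the lower assays 48 of 60, lay on the plate that also holds both index assays, beside 224 of all 336. The part of the plate in the results was not tested. In the sera of high index 133 of 2130 values (6.24%) were not detected, against 106 of 3905 (2.71%) in the sera of low index. The assays detected in all 11 sera of low index and missing in at least 3 of 6 of high index were mouse miR-96-5p, miR-208a-3p, miR-217-5p and miR-411-5p and rat miR-99a-3p. The reverse, detection in all 6 sera of high index and in at most 8 of 11 of low index, held for miR-9-3p and miR-1957a.

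The difference between the sets was present in both transgenic groups. All 109 assays that passed had the same sign in tumor-free and in tumor mice, which a fit on both groups favours, and 259 of the 328 assays with a difference in both groups did. An interaction of set with tumor-free or tumor status passed for 0 of the 328 assays by limma in which it could be fitted (0%), and 16 had an unadjusted p below 0.05 (smallest adjusted p 0.858). The sets of 2 and 5 sera in each group limit what this test can detect. In the same fit, with the set as a term, the label groups gave fewer calls than the set. The sets were cut from miRNA values of these same sera and the label groups were not. The counts therefore do not compare the size of the 2 kinds of difference. For tumor against tumor-free mice 8 assays passed (2.38%). The comparison of tumor-free with wild-type mice gave 1 (0.298%), and that of tumor with wild-type mice gave 28 (8.33%). Without the set as a term these counts were 5, 2 and 28.

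Single sera decided how many assays passed. Without tumor replicate 4, the serum of second highest index, 21 assays were higher and 31 lower. Without tumor replicate 3 there were 34 and 35, and without wild-type replicate 1, the only wild-type serum of low index, 33 and 37. No assay that passed changed its direction among the calls of any of these fits. Without wild-type replicate 2, whose levels of let-7f-5p and miR-142-3p stood far above those of the other sera of high index, 39 were higher and 46 lower.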

How the data were processed

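The deposited values are raw quantification cycles (Ct) of 365 assays in 17 mouse sera; per the labels' protocols, RNA was extracted from serum and read by SYBR Green PCR on a pair of ready-made serum panel plates. Threshold setting, plate calibration and detection limit are not given in the sources used here. Empty cells were taken as not detected and left out of the fit, and fold values assume doubling per cycle. The level was the mean Ct of 250 miRNA assays detected in all sera, without the index assays, minus the assay's Ct. Tested assays had values in 2 or more wild-type, 5 or more tumor-free and 5 or more tumor sera and in 2 or more sera of each set: 336 were tested and 19 were not, and 86 tested assays held 160 missing values.

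limma 3.58.1 (lmFit and eBayes, R 4.3.3) was fitted on all 17 sera with label group as covariate, two-sided, with Benjamini-Hochberg adjustment and a threshold of 0.05; it was tested on simulated data first. Measures of a serum were compared by an exact two-sided permutation test within label groups. Python 3.11.15 with numpy 2.4.6 and pandas 2.3.3 was used. The number of sera limits the precision. The last decimals divide the assays into the same 245 and 120 in 13 sera, taken as the plates; 4 sera have 1 ending. Named assays were the 12 of smallest p in each direction, the tested red cell list, the index assays and the 2 list members of smallest p in each list; others were named after their values were seen. The sets, members and lists were chosen with earlier results of these data known, so no list has a test. Alternatives covered scaling, missing values, detection filters, rat assays, the covariate, a continuous index, eBayes settings, an exact permutation test, transgenic mice only, the decimal endings and leaving out each serum.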

Additional observations from a re-analysis of the deposited data

Results flagged for a closer look

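Wild-type replicate 2, the serum of highest index, stood apart from the other 5 sera of high index in 5 of 75 sets of values examined, by a gap that chance gives in about 5% of such sets. Its level of miR-15b-5p was 6.26 where the others had 2.79 to 3.81. Its let-7f-5p was at 3.79 (others -0.38 to 0.86) and its miR-142-3p at 8.74 (others 5.29 to 6.46). Its miR-23a-3p, an assay of the index, was lowest at 3.88 (others 5.16 to 5.85). The mean Ct of its shared assays was lowest at 28.2 (others 29.8 to 30.6). The cause was not tested.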

How the results depend on the processing

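Scaling changed the counts most: 0 higher and 119 lower on raw Ct, 0 and 91 scaled to spike-ins, and 5 and 137 scaled to reference miRNAs, of which miR-103-3p, miR-93-5p and miR-425-5p themselves were higher relative to the panel. The share of higher among called assays was 45.0% relative to the mean, 50.5% relative to the median, 0% on raw Ct and 3.52% with reference miRNAs. With the index as a continuous covariate 74 were higher and 82 lower, in transgenic mice only 35 and 38, and without the 4 sera of 1 decimal ending 30 and 45. Leaving out 1 serum gave 21 to 63 higher and 31 to 71 lower. The other planned settings gave 37 to 53 higher and 50 to 72 lower, and no call took the opposite direction in any setting. Among the measures, leaving out 1 serum gave a difference in assays detected of -18.1 to -13.6, in mean Ct of 0.899 to 1.34 and in RNU5G of 1.80 to 2.67; without tumor replicate 1 all 3 passed (adjusted exact permutation p of 0.0106, 0.0317 and 0.0106).

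Of the 49 higher assays 9 lay below 0 on raw Ct, miR-15b-3p, miR-18a-3p, miR-328-3p, miR-331-3p, miR-425-5p, miR-484 and miR-501-5p at -0.23 to -0.012, miR-148b-3p (-0.26 on raw Ct, -0.18 by spike-ins, -0.024 by reference miRNAs) and miR-181c-5p (-0.074 on raw Ct). let-7c-5p had -0.38, -0.30 and -0.14 on these scales, and miR-30b-5p -0.17 and -0.093 on the first pair. miR-182-5p had -1.14, -1.10 and -0.77 on the same scales, -0.10 after quantile normalization, -0.22 without the covariate, -0.27 in transgenic mice only and -0.038 with the block described next; without 1 serum it ranged from -0.27 to 0.56, below 0 in 6 fits. miR-96-5p had 0.023 after quantile normalization and 0.31 with the continuous index. For 64 named assays, leaving out 1 serum in turn kept direction and side of the threshold in 981 of 1086 comparisons, and 85 no longer passed. The cause was not tested. Of the numbers in the transgenic animals' names, whose meaning is not stated, 3 are shared by 8 mice, and 2 of these occur in both transgenic groups. With this number as a random replicate block in limma, chosen after seeing the data (estimated correlation 0.126), 50 assays were higher and 63 lower, 49 and 60 of them the same as without it. Depth is not defined for Ct values; assays near the detection limit, such as miR-96-5p in 2 sera of high index, rest on few values.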
